A study of Mus musculus with 16 samples.

Results

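The collagen genes of cultured mouse coronal suture cells are described here. Members were the genes whose symbol has the form of a collagen chain (Col, a number, a, a number) and that had a probe set with that symbol alone. Of the 22180 genes named in this way on the array, 44 were collagen genes, and the brightest probe set stood for each. A filter on low values kept 13453 genes for testing, of which 35 were collagens. The rule for membership used names and no measured value.

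The study asked how thyroxine acts on cells of the coronal suture, the seam between the frontal and parietal bones, in wild-type mice and in mice with 1 disrupted copy of Twist1, a transcription factor gene. Cells of the C57BL6 background came from 2 mixed litters and were kept apart by genotype and sex, taken here as a female and a male culture of each genotype. Each culture was grown for 3 or 7 days in plain DMEM (control) or in DMEM with thyroxine at a log10 concentration of -6 mol/liter, with 1 array for each of the 16 conditions. All groups therefore shared the strain and the basal medium, wild-type cells and Twist1+/- cells each had 8 arrays, and each genotype, medium and day had 2 arrays, 1 per sex.

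Several features limit the groups as models. The labels sort the cells by genotype and sex alone, and they also count 8 samples as independent without saying what set these apart. It was assumed here that each genotype and sex was 1 culture, and every culture block and within-culture difference rests on that. Sex and culture then cannot be told apart, and p-values measure only the spread between arrays, which may be technical. Each condition had 3 wells of a 6 well plate seeded with 65000 cells per well, and the sources used here do not say whether wells were pooled. The level of Twist1 itself did not separate the genotypes. Its mean log2 value at 3 days was 7.58 in the wild-type female, 6.45 in the wild-type male, 7.16 in the Twist1+/- female and 7.24 in the Twist1+/- male culture, and the genotype difference in control medium was 0.22 ± 0.34 (SE; limma adjusted p = 0.943), so genotype rests on the labels.

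Cell type markers placed the cultures as mesenchymal cells together with macrophages. The 9 mesenchymal markers averaged 8.10 to 8.51 on the arrays of 3 cultures, but 7.05 to 7.37 on those of the wild-type male culture. The 15 macrophage and osteoclast markers averaged 7.99 to 8.82 at 3 days and 9.61 to 9.84 at 7 days in the other 3 cultures, against 9.62 to 9.92 over both days in the wild-type male culture. Chondrocyte markers averaged 4.22 to 4.68, and 5 of 10 passed the filter. Of 9 osteoblast markers 7 were measured, and Runx2 and Spp1 had no probe set with that symbol alone. The 7 averaged 3.37 to 3.78, near the level of the filter (3.91), and 2 of them passed it. Smooth muscle and pericyte markers, several of which mesenchymal cells also express, averaged 7.22 to 7.95. Endothelial, epithelial, glial and adipocyte markers averaged at most 4.47 on any array, with 6 of 7 epithelial and 3 of 5 glial markers measured. The wild-type male culture thus stands apart from the other 3, and the day and genotype differences are also given without it.

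Collagens are proteins of the extracellular matrix whose chains wind into a helix of 3 strands. Fibrillar collagens form the cables of bone, skin and tendon, the type IV chains form the net of basement membranes, and the FACIT collagens (fibril-associated, with interrupted helices) sit on the surface of fibrils. In a cranial suture, mesenchymal cells lay down a fibrous matrix between the bone fronts, and the bone that replaces it is built mainly on type I collagen.

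Upstream sequences are shown for 4 of the collagens that were lower in the male than in the female wild-type culture. The stretch between the starts of Col4a1 and Col4a2 is shown for a pair among the collagens that were lower at 7 days. Other collagens also differed in each comparison. They are RefSeq sequences of mouse GRCm38.p6, written 5′ to 3′ on the strand of the gene. Col3a1 has 150 bases before its start at chr1:45311388-45311537 (plus strand), Col1a2 at chr6:4505468-4505617 (plus), Col6a1 at chr10:76726045-76726194 (minus) and Col6a2 at chr10:76623631-76623780 (minus). The shared stretch of Col4a2 and Col4a1 lies at chr8:11312801-11312830 and is written on the plus strand, the strand of Col4a2. Capitals mark a match to TATAAA (the TATA box), to CCAAT (the CCAAT box), to CATATG (an E-box) or to GGGCGG (the GC box), searched on both strands, and in the last line the bases from the start of one gene to that of the other.
Col3a1: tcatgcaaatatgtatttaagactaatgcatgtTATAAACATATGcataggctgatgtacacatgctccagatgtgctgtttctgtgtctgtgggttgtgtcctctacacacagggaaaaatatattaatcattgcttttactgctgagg
Col1a2: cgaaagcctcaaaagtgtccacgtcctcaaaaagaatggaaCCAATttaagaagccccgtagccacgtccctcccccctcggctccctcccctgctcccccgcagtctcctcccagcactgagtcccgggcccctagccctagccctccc
Col6a1: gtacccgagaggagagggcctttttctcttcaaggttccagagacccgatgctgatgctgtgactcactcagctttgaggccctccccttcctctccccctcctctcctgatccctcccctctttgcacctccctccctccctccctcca
Col6a2: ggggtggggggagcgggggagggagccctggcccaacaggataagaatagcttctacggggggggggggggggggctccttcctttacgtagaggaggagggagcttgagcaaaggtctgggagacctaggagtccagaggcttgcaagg
Col4a2 and Col4a1: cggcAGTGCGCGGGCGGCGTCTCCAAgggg

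The stretch of Col3a1 held TATAAA from position -117 and CATATG from -111, counted from the start of the gene, and the 2 do not overlap. That of Col1a2 held CCAAT from -109. The stretches of Col6a1 and Col6a2, which lie on the same strand of chromosome 10, held none of the 4 motifs. Col4a2 and Col4a1 run away from each other, and the starts used by the promoter table, 11312805 and 11312826, lie such that 22 bases belong to both. The RefSeq gene record of Col4a1 reaches further, to 11312889, so the marked bases are not the whole overlap of the 2 genes. Windows of 300 bases (250 before and 50 after a start) were found for 35 of the 44 collagens, 38 windows in all. TATAAA was in 5 of them and in 13.6% of all 32851 windows, CCAAT in 13 against 37.4%, CATATG in 1 against 3.91% and GGGCGG in 23 against 35.7%. These matches describe the letters only.

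Levels of different collagen probe sets were not compared with each other, since they depend on the probes. The reading of cell types from marker averages above is limited in the same way. Col1a1 and Col1a2, the chains of type I collagen, ran from 11.75 to 12.93 and from 11.03 to 12.33 log2 units over the 16 arrays. Col3a1, the chain of type III collagen that shares fibrils with type I, ran from 8.31 to 11.11. Col2a1, the chain of cartilage collagen, ran from 5.59 to 7.31. Of the chondrocyte markers, Sox9, a transcription factor of cartilage that other cells also use, had culture and day means of 7.55 to 8.78, and Comp, a cartilage matrix protein also found in tendon, of 4.48 to 5.86. Sox5, Sox6 and Snorc also passed the filter. Acan, Matn1, Matn3, Hapln1 and Cnmd did not, with means of at most 3.85 for Acan and 3.48 for Matn1.

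The 9 collagens under the filter are accounted for by their range. Col4a3 (3.16 to 4.05) and Col4a4 (3.40 to 3.89) are chains of specialised basement membranes such as that of the kidney. Col9a1 (3.21 to 3.91) and Col9a3 (3.56 to 4.24) decorate cartilage fibrils, Col19a1 (3.21 to 3.71) is another FACIT chain, and Col10a1 (2.62 to 3.64) belongs to hypertrophic cartilage. Col6a4 (3.12 to 4.10), Col6a5 (3.21 to 3.97) and Col28a1 (3.23 to 4.19) complete the group. By class, the filter kept 11 of 11 fibrillar chains, 4 of 6 basement membrane chains, 6 of 9 FACIT chains and 14 of 18 others.

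**Figure D1:**
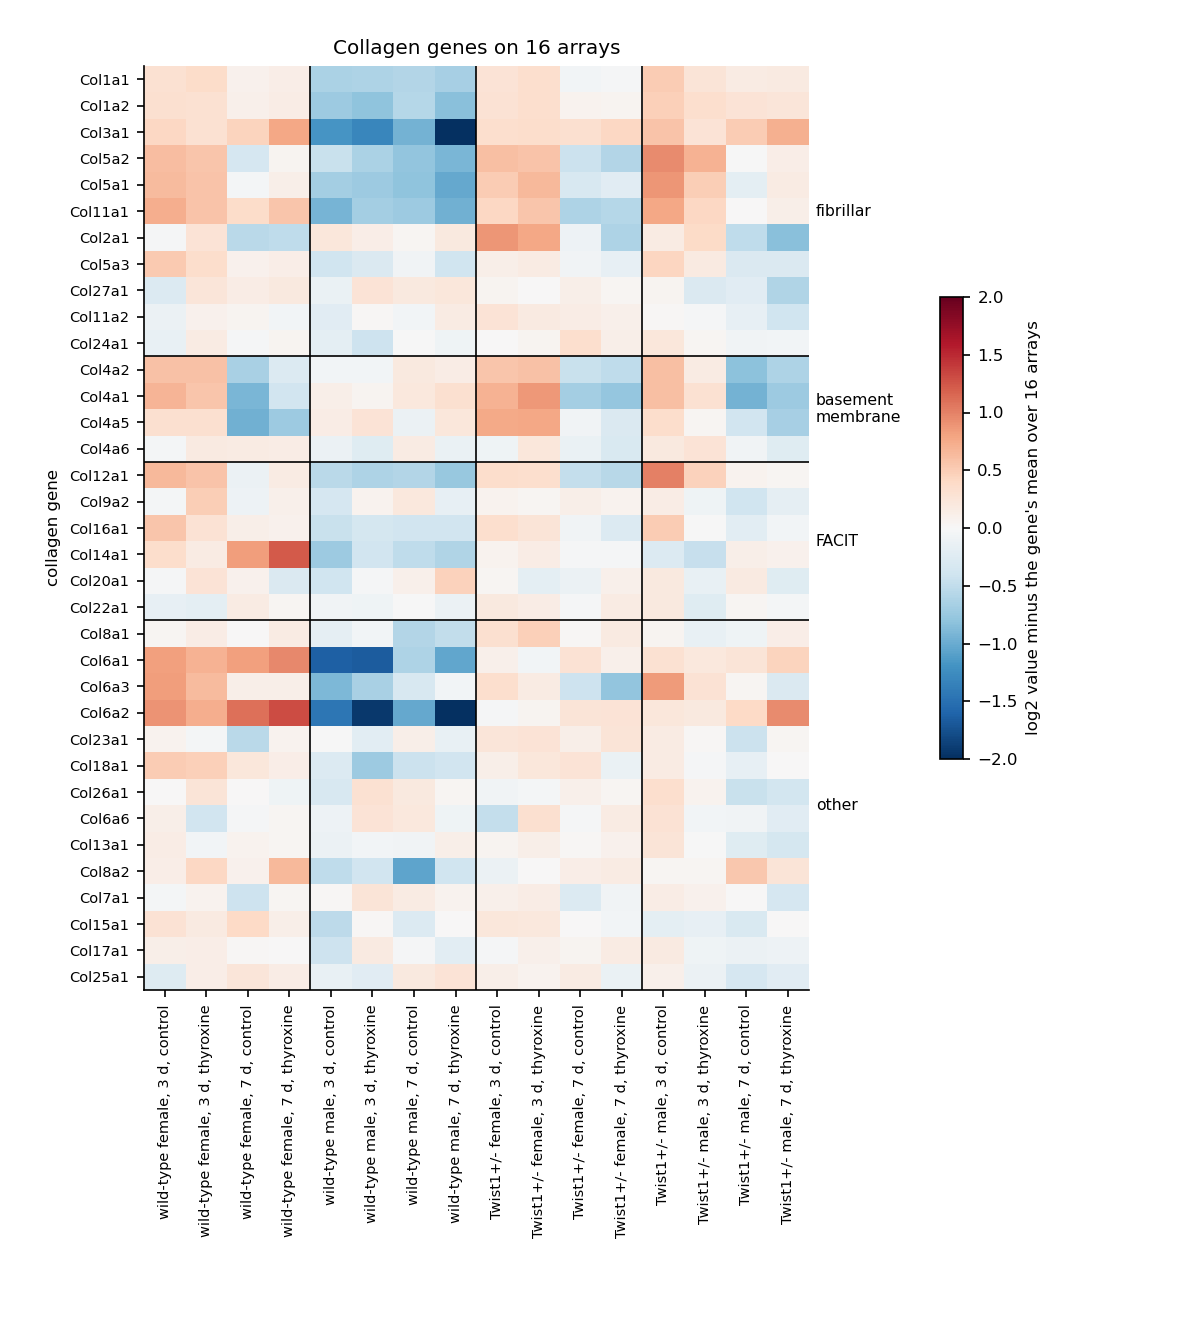
Each row is 1 of the 35 tested collagen genes, ordered by class and mean level, each column is 1 of the 16 arrays, and colour gives the log2 value minus the mean of that gene over all arrays. The 4 arrays of the wild-type male culture are blue for Col3a1, Col6a1 and Col6a2, and the 7 day arrays of the other 3 cultures are blue for Col4a1 and Col4a2.

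The first question was how collagen transcripts differed between 3 and 7 days in culture. At 7 days the network chains Col4a1, Col4a2 and Col4a5 and the fibril-forming chains Col5a1, Col5a2, Col2a1 and Col11a1 were lower, and so were Col12a1 and Col16a1 of the FACIT class. Col1a1 was lower by a small amount. Of 35 collagens, 10 fell with an adjusted p under 0.05 in limma, where 11.7% of all genes tested fell, and 1 rose, where 11.9% of all genes rose. The median collagen difference was -0.12 log2 units (-0.18 without the wild-type male culture, and -0.06 without the wild-type female culture) and that of all genes -0.02. Because the RNA of mixed cells was measured, fewer cells of a type and less RNA per cell cannot be told apart.

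Fibrillar chains fell in 5 of 11 cases. Col5a2, a chain of type V collagen, which starts type I fibrils and limits their width, had values at 3 days of 9.84 (control) and 9.77 (thyroxine) in the wild-type female, 8.77 and 8.59 in the wild-type male, 9.82 and 9.79 in the Twist1+/- female and 10.16 and 9.91 in the Twist1+/- male culture. At 7 days the same cultures gave 8.88 and 9.27, 8.44 and 8.31, 8.79 and 8.63, and 9.22 and 9.36. Within each culture both 7 day arrays lay below both 3 day arrays. The difference was -0.72 ± 0.08 (SE; limma adjusted p = 0.000113), 0.608 times the 3 day level. It kept its call without the wild-type male culture (-0.825).

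Col5a1, the other main chain of type V collagen, fell by 0.58 ± 0.08 (adjusted p = 0.000202). Its dimmer second probe set gave -0.10, and the 2 probe sets correlated at 0.40 over the 16 arrays. Col2a1 fell by 0.71 ± 0.09 (adjusted p = 0.00019) and Col11a1, a chain of type XI collagen found with type II and type V chains in fibrils, by 0.46 ± 0.09 (adjusted p = 0.00342). The call for Col11a1 was lost without the Twist1+/- female culture or its pair at 7 days. Without the wild-type male culture the 3 differences were -0.67, -0.86 and -0.49.

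Of type I and type III collagen only Col1a1 passed the threshold. It had 3 day values of 12.72 and 12.79 in the wild-type female, 11.79 and 11.81 in the wild-type male, 12.69 and 12.75 in the Twist1+/- female and 12.93 and 12.67 in the Twist1+/- male culture, with control first. The 7 day values were 12.50 and 12.55, 11.83 and 11.75, 12.36 and 12.39, and 12.59 and 12.60. Its 7 day arrays were lower in the 3 cultures other than the wild-type male, where the days overlapped. The difference was -0.20 ± 0.06 (adjusted p = 0.0247), and the call was lost in 8 of 12 refits that left out a pair or a culture, while without the wild-type male culture it was -0.25. In these refits, leaving out a pair gave the same day difference as leaving out its whole culture, so they are not separate checks. Col1a2 gave -0.13 ± 0.06 (adjusted p = 0.139) and -0.34 with its dimmer second probe set, and Col3a1 0.06 ± 0.12 (adjusted p = 0.797).

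The basement membrane class had the largest median difference, -0.74, with 3 of its 4 tested chains past the threshold. Col4a1, which with Col4a2 makes the common type IV network, had 3 day values of 8.46 and 8.33 in the wild-type female, 7.89 and 7.84 in the wild-type male, 8.48 and 8.65 in the Twist1+/- female and 8.38 and 8.08 in the Twist1+/- male culture. At 7 days these were 6.86 and 7.39, 7.99 and 8.10, 7.10 and 7.01, and 6.84 and 7.05. In 3 cultures every 7 day array was below every 3 day array, and in the wild-type male culture every 7 day array was above. The mean difference was -0.97 ± 0.16 (adjusted p = 0.00082), 0.510 times the 3 day level, and without the wild-type male culture it was -1.33.

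Col4a2 followed the same pattern. Its values in control medium went from 8.49 to 7.27 in the wild-type female, from 7.85 to 8.10 in the wild-type male, from 8.46 to 7.47 in the Twist1+/- female and from 8.51 to 7.09 in the Twist1+/- male culture. With thyroxine they went from 8.50 to 7.64, from 7.86 to 8.06, from 8.50 to 7.40 and from 8.08 to 7.29. Again the wild-type male culture alone was higher at 7 days. The mean difference was -0.74 ± 0.14 (adjusted p = 0.00224), and the call was lost without the Twist1+/- female or the Twist1+/- male culture, where the highest adjusted p was 0.0595. Without the wild-type male culture it was -1.06.

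Col4a5, an X-linked chain of specialised basement membranes, went in control medium from 6.42 to 5.13 in the wild-type female, from 6.25 to 5.98 in the wild-type male, from 6.85 to 6.03 in the Twist1+/- female and from 6.44 to 5.72 in the Twist1+/- male culture. With thyroxine it went from 6.41 to 5.37, from 6.37 to 6.32, from 6.87 to 5.80 and from 6.14 to 5.43. All 8 pairs of a culture and a medium were lower at 7 days, by little in the wild-type male culture. The difference was -0.75 ± 0.12 (adjusted p = 0.000684), and -0.998 without the wild-type male culture. Col4a6, its usual partner, gave -0.10 ± 0.08 (adjusted p = 0.44), and all 16 of its values lay between 3.72 and 4.31, near the filter.

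Among 6 tested FACIT chains, 2 fell. Col12a1, which binds type I fibrils in dense connective tissue, went in control medium from 10.44 to 9.68 in the wild-type female, from 9.26 to 9.20 in the wild-type male, from 10.14 to 9.32 in the Twist1+/- female and from 10.80 to 9.87 in the Twist1+/- male culture. With thyroxine it went from 10.37 to 9.95, from 9.17 to 9.03, from 10.13 to 9.24 and from 10.25 to 9.83. It was lower in all 8 pairs, with the smallest steps in the wild-type male culture. The difference was -0.56 ± 0.08 (adjusted p = 0.000435), and -0.68 without the wild-type male culture. Col16a1, the other FACIT chain that fell, gave -0.29 ± 0.08 (adjusted p = 0.022). Its call was lost in 9 of the 12 refits but not in the one without the wild-type male culture (-0.38).

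Of the 14 tested chains of other classes, none fell past the threshold and 1 rose. Col6a1, a chain of the beaded filaments around cells, gave 0.31 ± 0.10 (adjusted p = 0.0343), but its dimmer second probe set gave -0.32, and the mean of both -0.0094, so its direction depends on the probe set. Its call was also lost in 9 of 12 refits, among them the one without the wild-type male culture (0.13). Col6a2, the partner chain, gave 0.32 ± 0.11 (adjusted p = 0.0528) and Col6a3, the largest chain of that filament, -0.39 ± 0.14 (adjusted p = 0.0556).

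Counted by pairs, 4 collagens were lower at 7 days in 8 of 8 pairs, namely Col4a5, Col5a1, Col5a2 and Col12a1, which is 11.4% of those tested where 5.75% of all genes were. None was higher in all 8, where 6.08% of all genes were. Outside the wild-type male culture, 14 collagens, or 40.0%, were lower in 6 of 6 pairs, against 14% of all genes, and 1, Col6a2, was higher, against 13.1%. The 14 were Col1a1, Col1a2, Col2a1, Col4a1, Col4a2, Col4a5, Col5a1, Col5a2, Col5a3, Col6a3, Col7a1, Col11a1, Col12a1 and Col16a1.

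Of the 10 falls 6, those of Col2a1, Col4a1, Col4a5, Col5a1, Col5a2 and Col12a1, kept their call in all 12 refits. The 12 are not separate checks, since a refit without a pair had the same day difference as that without its whole culture. Without the Twist1+/- female culture 6 collagens were called, all lower, where 2.77% of all genes were lower. Without the Twist1+/- male culture 7 were lower (5.63% of all genes), and without the Twist1+/- female pair at 7 days 7 (3.58%). With culture as a random block 7 were lower (8.69% of all genes) and without any block 4 (3.95%). Without the wild-type male culture 12 were lower (14.2% of all genes), with Col5a3 and Col6a3 added, and 2 higher (11.9%), Col6a2 and Col14a1. Over the same days 13 of the 15 macrophage and osteoclast markers rose, with a median of 1.16 over the 15. The other 2, the osteoclast genes Acp5 and Ctsk, did not. None of the 9 mesenchymal markers rose and 1 fell, and 5 of the 7 smooth muscle and pericyte markers fell, with a median of -0.35. Their part in the collagen differences was not tested.

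**Figure D2:**
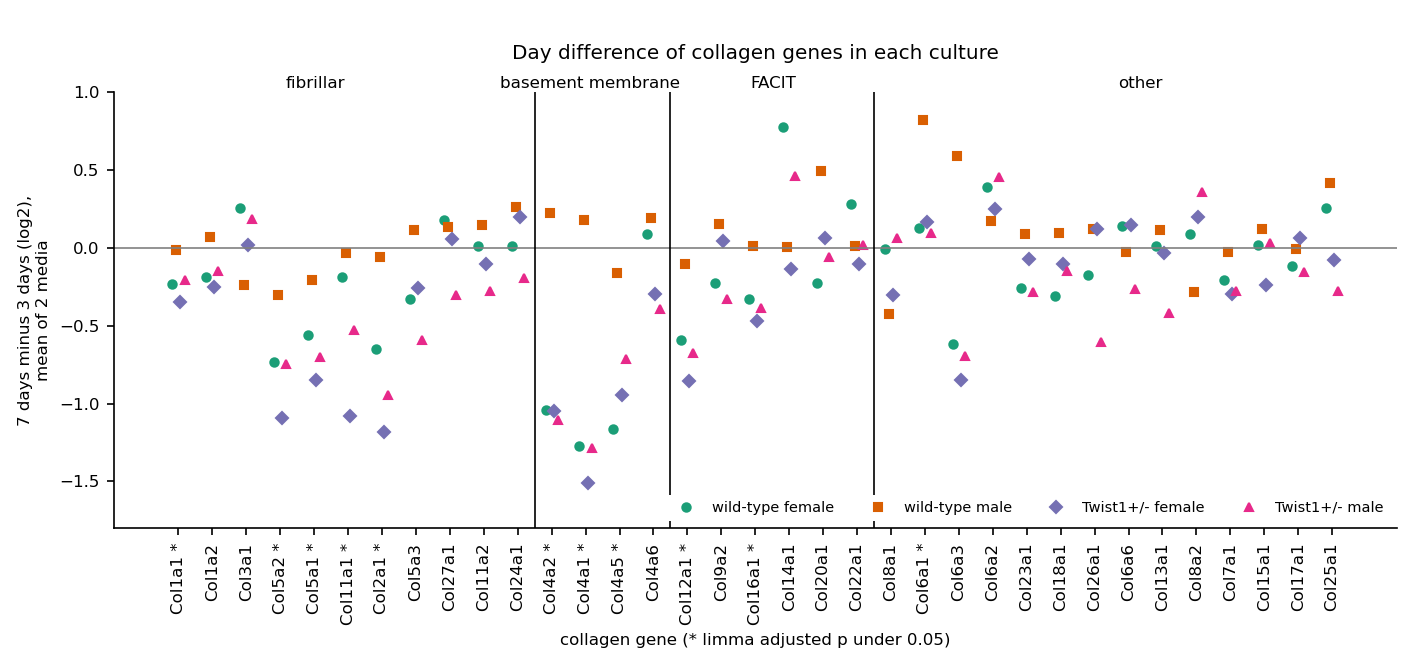
The vertical axis is the 7 day minus the 3 day log2 value, averaged over both media, for each tested collagen gene (horizontal axis, by class). Each symbol is 1 culture, and for Col4a1, Col4a2 and Col6a3 the wild-type male culture lies above 0 while the other 3 lie below -0.6.

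Whether the day difference depended on genotype was tested directly. No collagen passed the threshold in limma, and neither did any other gene (0% higher and 0% lower of all genes tested). At an unadjusted p under 0.05 there were 11 collagens (31.4%) and 1474 of 13453 genes (11%). The median collagen value, Twist1+/- day difference minus wild-type day difference, was -0.22, with 30 of 35 below 0, against 0.03 for all genes. The lowest values were those of Col4a1 (-0.85 ± 0.32), Col6a3 (-0.76 ± 0.27), Col2a1 (-0.71 ± 0.19) and Col11a1 (-0.69 ± 0.19), with adjusted p between 0.357 and 0.408. The highest were Col8a2 (0.38 ± 0.17), Col8a1 (0.10 ± 0.15), Col3a1 (0.09 ± 0.24) and Col6a2 (0.07 ± 0.22). Without the wild-type male culture the median was -0.12, no collagen was called (0% of all genes), and the values were -0.13 for Col4a1, -0.16 for Col6a3, -0.42 for Col2a1, -0.62 for Col11a1, 0.19 for Col8a2, -0.12 for Col8a1, -0.16 for Col3a1 and -0.04 for Col6a2.

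The wild-type mean in this comparison joins cultures that went apart. Without the wild-type female culture 6 collagens were called, all lower, where 1.51% of all genes were lower. Without its 3 day pair 7 were lower (1.56% of all genes) and without its 7 day pair 9 (2.01%). Beside them, 14 of the 15 macrophage and osteoclast markers had a positive value in the same comparison, with a median of 0.65 and none past the threshold.

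Within wild type, the day difference of the male culture was set against that of the female culture. It was higher for 5 collagens, where 1.17% of all genes were called higher, and lower for none, where 2.1% of all genes were called lower. The 5 were Col4a1 (1.45 ± 0.22, adjusted p = 0.00152), Col4a2 (1.26 ± 0.20, adjusted p = 0.00248), Col6a3 (1.21 ± 0.24, adjusted p = 0.0108), Col4a5 (1.00 ± 0.23, adjusted p = 0.025) and Col6a1 (0.69 ± 0.17, adjusted p = 0.0397). The last lost its call without the Twist1+/- female culture or either of its pairs. Leaving out Twist1+/- arrays changed only the estimate of spread, and no refit left out a wild-type array.

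Col4a1 and Col4a2 of the wild-type male culture had the lowest mean of the 4 cultures at 3 days and the highest at 7 days, from the values listed above. Col6a3 moved in part. In the wild-type male culture it went from 7.22 to 7.80 in control medium and from 7.47 to 8.07 with thyroxine. In the wild-type female it went from 8.96 to 8.24 and from 8.75 to 8.24, in the Twist1+/- female from 8.46 to 7.71 and from 8.28 to 7.33, and in the Twist1+/- male culture from 8.97 to 8.15 and from 8.40 to 7.83. The wild-type male culture was the lowest of the 4 at 3 days, and at 7 days it lay among the others. In the same comparison 11 of 15 macrophage and osteoclast markers were called lower and none higher, with a median of -1.33, and their part was not tested.

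**Figure D3:**
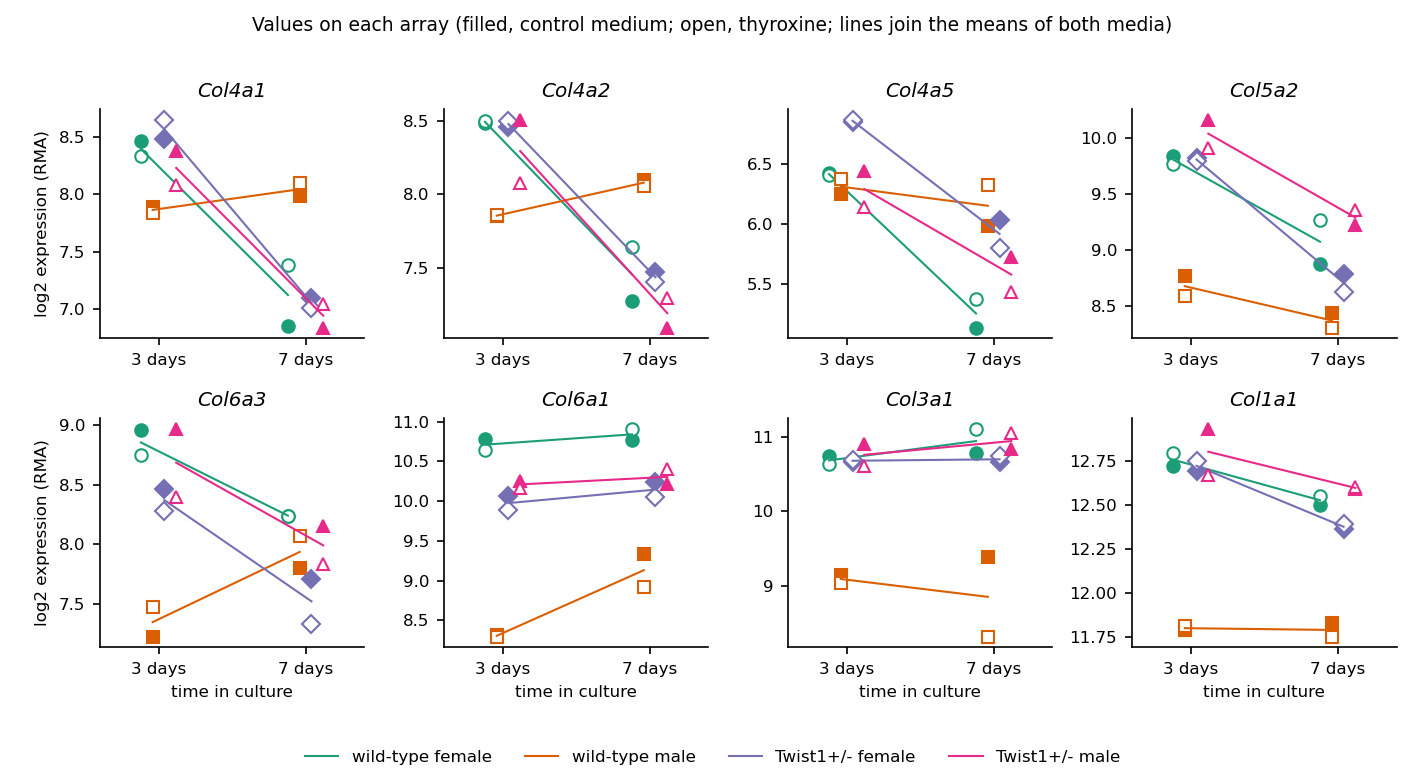
Log2 expression of 8 collagen genes on each array at 3 and 7 days, with 1 colour and symbol per culture, filled symbols for control medium, open symbols for thyroxine and lines through the means of both media. Col4a1 goes from 7.89 and 7.84 to 7.99 and 8.10 in the wild-type male culture and falls in the others, while Col3a1 and Col1a1 are lowest in the wild-type male culture on both days.

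The largest differences among collagens lay between the male and the female culture of wild type. Lower in the male culture were Col6a1, Col6a2 and Col6a3 of type VI, Col3a1 of type III, the 3 type V chains, Col11a1 of type XI and both type I chains. Col6a6 of type VI (0.14 ± 0.19), Col11a2 of type XI (-0.01 ± 0.11) and the type IV chains did not pass the threshold. Of 35 collagens, 17 were lower, where 11.7% of all genes tested were lower, and none was higher, where 11.7% of all genes were higher. All 17 had 4 male arrays below all 4 female arrays (48.6%, against 11.5% of all genes), and none lay wholly above (against 9.4%). The median collagen difference was -0.20 and that of all genes 0.00. The collagen median was -0.79 with a stricter filter, which drops dim collagens, and -0.48 without either wild-type pair at 7 days.

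Beaded filament chains differed most, with 3 of 4 tested lower. Col6a2 had values of 8.84, 8.67, 9.04 and 9.25 in the female culture (3 days control and thyroxine, then 7 days control and thyroxine) and of 6.50, 6.01, 6.92 and 5.94 in the male culture. The lowest female value was thus well above the highest male value. The difference was -2.61 ± 0.16 (adjusted p = 1.69e-07), so the male level was 0.164 times the female level.

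Col6a1 had values of 10.78, 10.64, 10.77 and 10.91 in the female and 8.32, 8.29, 9.34 and 8.92 in the male culture, in the same order. The groups did not overlap, and the gap was wider at 3 days (-2.40) than at 7 (-1.71). The difference was -2.06 ± 0.13 (adjusted p = 3.93e-07), and the second probe set gave -2.51. For Col6a3 the difference was -0.91 ± 0.19 (adjusted p = 0.00454), made up of -1.51 at 3 days and -0.30 at 7 days, and its call was lost without either wild-type pair at 3 days.

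Of the fibrillar chains, 7 of 11 were lower, with a class median of -0.84. Col3a1 had values of 10.74, 10.63, 10.78 and 11.11 in the female and 9.15, 9.03, 9.39 and 8.31 in the male culture. The 7 day thyroxine array of the male culture was the lowest of all 16. The difference was -1.84 ± 0.17 (adjusted p = 8.35e-06).

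Col1a2 had values of 12.18, 12.16, 11.96 and 12.01 in the female and 11.13, 11.05, 11.29 and 11.03 in the male culture, with no overlap. The difference was -0.95 ± 0.08 (adjusted p = 4.23e-06), and the second probe set gave -1.01. Col1a1 gave -0.84 ± 0.08 (adjusted p = 1.05e-05), 0.557 times the female level, from the values listed above. Col11a1 gave -1.38 ± 0.13, Col5a2 -0.91 ± 0.12 and Col5a3, a less common type V chain, -0.57 ± 0.13. Col5a1 gave -1.13 ± 0.11, but its dimmer second probe set only -0.10, and the mean of both -0.62 (adjusted p = 0.0032). Col2a1 was the one fibrillar chain with a sizeable positive value, 0.34 ± 0.13 (adjusted p = 0.0795).

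Of the FACIT chains 3 of 6 were lower. Col14a1, which binds the surface of type I fibrils, had values of 5.73, 5.54, 6.22 and 6.61 in the female and 4.65, 4.99, 4.87 and 4.78 in the male culture. The female culture rose with day and the male culture did not, and no array overlapped. The difference was -1.20 ± 0.18 (adjusted p = 0.000388). Col12a1 gave -0.94 ± 0.12 (adjusted p = 9.27e-05) and Col16a1 -0.65 ± 0.12 (adjusted p = 0.00148), with the latter call lost without either wild-type pair at 3 days, as was that of Col5a3.

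The other lower chains were the network collagens Col8a1 (-0.41 ± 0.11) and Col8a2 (-0.90 ± 0.12), known from vessel walls and the cornea, and the multiplexins Col15a1 (-0.43 ± 0.14) and Col18a1 (-0.79 ± 0.13), which lie in basement membrane zones and release endostatin-like fragments. Col8a2 went from 4.81, 5.10, 4.76 and 5.33 in the female to 4.18, 4.30, 3.63 and 4.28 in the male culture, and Col18a1 from 6.24, 6.20, 5.96 and 5.86 to 5.46, 5.00, 5.30 and 5.35. Neither gene overlapped between the cultures. The call of Col8a1 was lost without either wild-type pair at 7 days, and that of Col15a1 in all 10 refits.

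The type IV chains went another way. Male minus female, Col4a1 stood at -0.53 at 3 days and 0.92 at 7 days, Col4a2 at -0.64 and 0.63, and Col4a5 at -0.10 and 0.90. Averaged over days they gave 0.20 ± 0.23, -0.01 ± 0.20 and 0.40 ± 0.17 (lowest adjusted p 0.117). Without either wild-type pair at 7 days Col4a1 and Col4a2 were called lower. Without either wild-type pair at 3 days they were called higher, with Col4a5 and Col2a1, so 4 collagens were then higher, where 7.67% to 7.69% of all genes were. None of the 4 transmembrane chains (Col13a1, Col17a1, Col23a1 and Col25a1) passed the threshold, nor did the anchoring fibril chain Col7a1 (0.22 ± 0.13) or Col26a1 (0.01 ± 0.15).

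In the same comparison 8 of the 9 mesenchymal markers were lower in the male culture and 1 was higher, with a median of -1.10. Lum and Dcn, proteoglycans that bind collagen fibrils, had means at 3 days of 7.20 and 9.17 in the female and of 4.78 and 7.27 in the male culture. Of the 15 macrophage and osteoclast markers 9 were higher and 2, the osteoclast genes Acp5 and Ctsk, lower, with a median of 0.79 over the 15. The part of either in the collagen differences was not tested.

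Between the Twist1+/- cultures no collagen was called by limma, where 0.305% of all genes were higher and 0.297% lower in the male culture. At an unadjusted p under 0.05 there were 8 collagens (22.9%) and 1890 of all genes (14%). The largest positive values were those of Col12a1 (0.48 ± 0.12, adjusted p = 0.101), Col5a2 (0.41 ± 0.12), Col6a3 (0.39 ± 0.19) and Col11a1 (0.38 ± 0.13), and the largest negative ones those of Col4a5 (-0.46 ± 0.17), Col2a1 (-0.43 ± 0.13), Col27a1 (-0.32 ± 0.11) and Col11a2 (-0.32 ± 0.11). Only Col11a2, a type XI chain, had all 4 male arrays below all 4 female arrays (2.86% of collagens, against 2% of all genes), and none lay wholly above (against 2.43%).

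That count was sensitive to the arrays used. Leaving out 1 of the 4 wild-type pairs, which enter the fit through the estimate of spread, gave 3 to 5 calls, where 1.85% to 2.43% of all genes were called. Leaving out the wild-type female culture gave 1 (1.58% of all genes) and the wild-type male culture 2 (1.67%). With culture and day means, Col5a2 and Col12a1 were called, where 2.22% of all genes were.

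The test of the difference between the genotypes, the male minus female value in Twist1+/- minus that in wild type, called 14 collagens higher, where 9.64% of all genes were, and 2 lower, where 5.64% were. The highest values were those of Col6a2 (2.91 ± 0.22), Col6a1 (2.25 ± 0.19), Col3a1 (2.01 ± 0.24) and Col11a1 (1.76 ± 0.19), with adjusted p of at most 0.00013. The 2 lower were Col4a5 (-0.85 ± 0.24, adjusted p = 0.0311) and Col2a1 (-0.78 ± 0.19, adjusted p = 0.0136). Without both Twist1+/- pairs at 7 days, or without either of them, 10 were called, all higher (4.02% to 4.04% of all genes): Col1a1, Col1a2, Col3a1, Col5a1, Col5a2, Col6a1, Col6a2, Col8a2, Col11a1 and Col12a1.

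**Figure D4:**
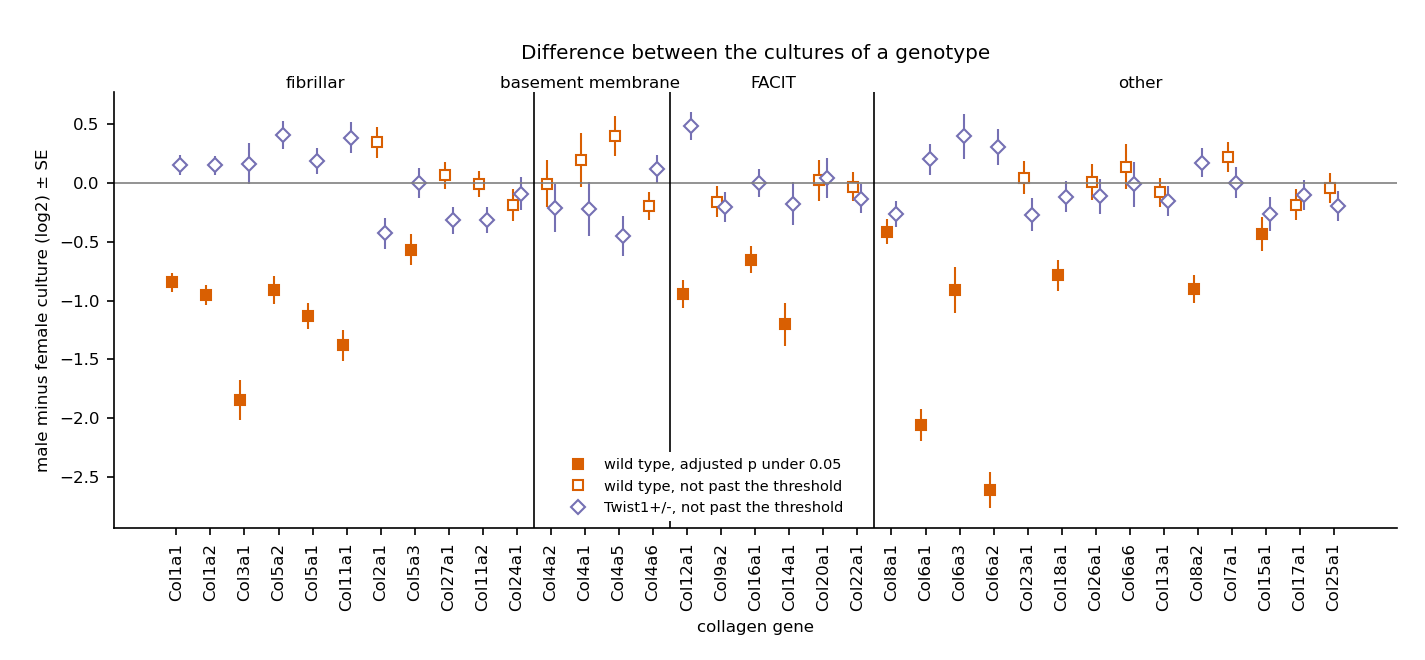
The vertical axis is the male minus the female culture in log2 units with its standard error from limma, for each tested collagen gene (horizontal axis, by class) in wild type (squares) and Twist1+/- (diamonds). Filled symbols have an adjusted p under 0.05: 17 wild-type values, all below 0, and no Twist1+/- value.

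Genotype itself was compared in control medium over both days, with 2 cultures against 2. No collagen was called by limma, and no gene at all (0% higher and 0% lower). At an unadjusted p under 0.05 there was 1 collagen, Col1a2 (2.86%), and 639 of all genes (4.75%). The largest positive values, Twist1+/- minus wild type, were those of Col3a1 (0.76 ± 0.41), Col5a2 (0.52 ± 0.28), Col1a2 (0.50 ± 0.22) and Col8a2 (0.48 ± 0.23), and the lowest those of Col6a6 (-0.12 ± 0.23), Col4a1 (-0.10 ± 0.29), Col4a6 (-0.07 ± 0.14) and Col4a2 (-0.04 ± 0.26), with adjusted p of at least 0.889. The collagen median was 0.14 and that of all genes 0.04.

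The female and the male cultures gave different pictures, and sex cannot be told apart from culture here. Among male cultures at 3 days, 34 of 35 collagens were higher in Twist1+/- with a median of 0.49, against 0.02 for all genes. At 7 days the male median was -0.03, and among females the medians were -0.04 and -0.05. Without the wild-type female culture 12 collagens were called, all higher, where 8.85% of all genes were higher. Without the Twist1+/- female culture 10 were, all higher (4.12% of all genes). Without the wild-type male culture 1 was higher (0.453% of all genes) and 2 lower (0.587%), and Col3a1 stood at -0.07, Col5a2 at -0.07, Col1a2 at -0.01 and Col8a2 at -0.04. With the mean of both its probe sets, Col1a2 gave 0.06 over all cultures.

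Thyroxine was tested within pairs of arrays of the same culture and day. Col8a2 and Col6a3 had the largest differences, and no collagen passed the threshold. Over both genotypes limma called no collagen, where 0.0818% of all genes were higher and 0.0149% lower, and 2 collagens (5.71%) had an unadjusted p under 0.05, as had 6.13% of all genes. The collagen differences ran from -0.14 to 0.19 with a median of -0.01. No collagen moved the same way in 8 of 8 pairs, where 0.364% of all genes were higher and 0.357% lower in all 8.

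Col8a2 had thyroxine minus control values of 0.29 and 0.57 in the wild-type female culture at 3 and 7 days, 0.12 and 0.65 in the wild-type male, 0.12 and 0.04 in the Twist1+/- female and 0.00 and -0.28 in the Twist1+/- male culture. All 4 wild-type pairs were above 0 and the Twist1+/- pairs were on both sides. The difference was 0.19 ± 0.08 (adjusted p = 0.79) over all and 0.41 ± 0.12 (adjusted p = 0.83) in wild type. Col8a1 gave 0.10 ± 0.05 (adjusted p = 0.83) over all.

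Col6a3 had values of -0.21 and 0.00 in the wild-type female culture, 0.25 and 0.27 in the wild-type male, -0.18 and -0.38 in the Twist1+/- female and -0.57 and -0.32 in the Twist1+/- male culture. All 4 Twist1+/- pairs were below 0. The difference was -0.14 ± 0.07 (adjusted p = 0.81) over all and -0.36 ± 0.09 (adjusted p = 0.21) in Twist1+/-, where it passed the threshold only without the Twist1+/- female pair at 3 days.

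By genotype, limma called no collagen in wild type (0.00743% of all genes higher and 0.00743% lower; 3 collagens and 752 genes at an unadjusted p under 0.05). It called none in Twist1+/- (0.164% and 0.0372%), with 1 collagen and 1397 genes at an unadjusted p under 0.05. The test of the difference between genotypes called none either (0.0595% and 0%), with 5 collagens and 1282 genes. In that test Col6a2 stood at 0.51 ± 0.21 and Col27a1, a fibrillar chain of cartilage, at -0.47 ± 0.15.

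Single pairs moved more than the means. At 7 days the wild-type male culture had a thyroxine minus control value of -1.08 for Col3a1 and -0.98 for Col6a2, while the other 7 pairs lay between -0.30 and 0.33 for the former. In the Twist1+/- male culture at 3 days 31 of 35 collagens were lower with thyroxine, with a median of -0.25 against 0.02 for all genes, and in the same culture at 7 days 15 were lower with a median of 0.01. With 1 pair for each culture and day, neither has a replicate.

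**Figure D5:**
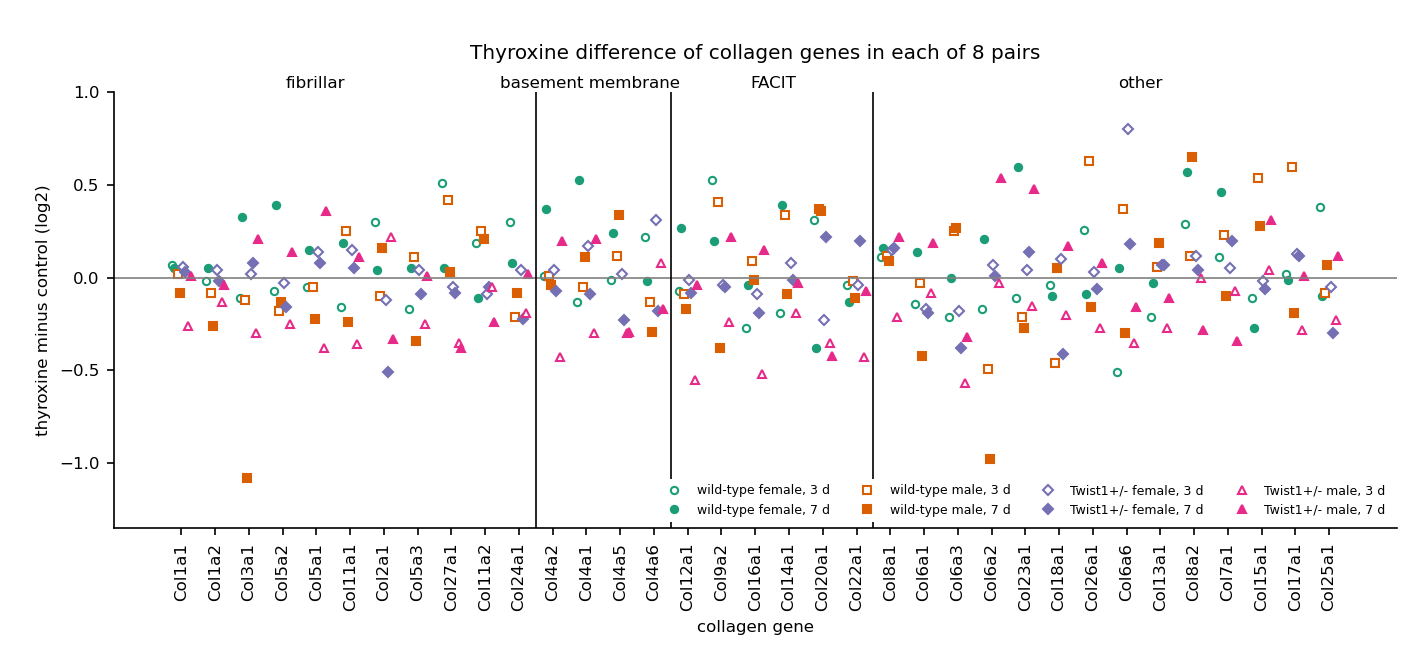
The vertical axis is thyroxine minus control in log2 units for each tested collagen gene (horizontal axis, by class), with 1 symbol for each of the 8 pairs of a culture and a day. The symbols of most genes lie on both sides of 0, and the lowest are Col3a1 (-1.08) and Col6a2 (-0.98), both from the 7 day pair of the wild-type male culture.

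Chains that form molecules together were compared across the 16 arrays as a description. Col1a1 and Col1a2 correlated at 0.984, Col4a1 and Col4a2 at 0.982 and Col6a1 and Col6a2 at 0.961, against a median of 0.275 over all 595 pairs of tested collagens. After the mean of each culture and day was taken off, the values were 0.605, 0.884 and 0.80 and the median 0.236. Col3a1 and Col5a2, which neighbour each other on chromosome 1, gave 0.663 and 0.578, and Col4a5 and Col4a6, neighbours on chromosome X, 0.087 and -0.134. The arrays share cultures and plates, so these are no tests.

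Genes that make, process or bind collagen were taken as a list of 44, of which 35 were tested. Between days 15 of them fell and 2 rose, where 11.7% of all genes fell and 11.9% rose. The falls with the smallest p were those of P3h1, a prolyl 3-hydroxylase of collagen (-0.45 ± 0.06), Ddr1, a collagen receptor kinase (-0.48 ± 0.09), Adamts14, a procollagen N-proteinase (-0.42 ± 0.08), and P3h4, a partner of the lysyl hydroxylases (-0.31 ± 0.06). The 2 rises were Lair1, an inhibitory collagen receptor of leukocytes (1.19 ± 0.15), and Plod1, a lysyl hydroxylase (0.46 ± 0.06). The list's median was -0.22.

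Between the wild-type cultures 20 of the 35 were lower in the male culture and 3 higher, with a median of -0.32, where 11.7% of all genes were lower and 11.7% higher. The lower ones with the smallest p were Pcolce, which enhances cleavage of the procollagen C-terminus (-1.03 ± 0.09), the prolyl 3-hydroxylase P3h3 (-1.11 ± 0.12), Creb3l1, a transcription factor of collagen-secreting cells (-0.62 ± 0.07), and Itga1, a collagen-binding integrin chain (-1.09 ± 0.15). The higher ones were Pcolce2 (0.96 ± 0.24), Lair1 (0.82 ± 0.21) and Adamts14 (0.43 ± 0.11). The difference between genotypes was called higher for 19, where 9.64% of all genes were, and lower for none, where 5.64% were. In the day by culture comparison of wild type, Pcolce2 (1.40 ± 0.27) and Loxl3, a lysyl oxidase that cross-links collagen (0.86 ± 0.15), were higher (1.17% of all genes) and Lair1 (-1.26 ± 0.25) lower (2.1%). None of the 35 was called for genotype, day by genotype, the Twist1+/- cultures or any thyroxine comparison.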

How the data were processed

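RNA of 4 cultures, each in 2 media and on 2 days, was measured on 16 Affymetrix arrays. The authors deposited log2 expression values for probe sets, and the submitters' processing notes name RMA and Affymetrix Expression Console. Versions, build and annotation were not given in the sources used. RMA equalises the arrays (medians 3.73 to 3.86), so a shift of all genes would not show, and low differences are compressed. Of 41345 probe sets 23521 had 1 symbol, 1814 several and 16010 none. Genes with a mean of at least 3.905 (40th percentile) were tested.

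limma 3.58.1 (R 4.3.3, statmod 1.5.0) was used with an intensity trend, two-sided, with Benjamini-Hochberg adjustment over all 13453 genes at 0.05, and was tested on simulated data. Day and culture comparisons had 8 group means and a male effect per genotype (culture as a fixed block). The wild-type day by culture comparison had culture and day means and 1 thyroxine effect, thyroxine had the pair as a block, and genotype had culture as a random block (correlation 0.202). Control and thyroxine arrays were paired because the labels place their wells on a shared plate. Residual degrees of freedom were 6, 7, 4 and 7. Members, lists and tests were chosen with earlier results of these data known. Named genes were the members past the threshold or, where fewer than 8 passed, the up to 4 largest in each direction; list genes were the 4 smallest p in each direction. Alternatives were no trend, no or a stricter filter, the mean of probe sets, other blocks, and leaving out pairs or cultures.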

Additional observations from a re-analysis of the deposited data

Results flagged for a closer look

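The day difference differed between the male and the female culture of wild type, by a limma test of the difference itself, for 5 collagens. Of all genes, 1.17% were called higher and 2.1% lower. The call of Col6a1 was kept in 3 of 6 refits that left out a Twist1+/- pair or culture. These refits changed only the estimate of spread, so they could not test the differences themselves. Male minus female, the values were 1.45 for Col4a1, 1.26 for Col4a2, 1.01 for Col4a5, 1.21 for Col6a3 and 0.69 for Col6a1, in log2 units. With the mean of a gene's probe sets 4 collagens were called higher (1.09% of all genes). The count was also 4 with no intensity trend (0.691%) and with no filter on low values (0.537%).

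The male minus female difference differed between Twist1+/- and wild type, again by a test of the difference, for 16 collagens. Of all genes, 9.64% were called higher and 5.64% lower. When a pair was left out, Col2a1, Col4a5, Col16a1 and Col18a1 each kept this call in 2 of 8 refits. Col14a1 kept it in 4 of 8 and Col6a3 in 6 of 8. Leaving out the female or the male pair of a genotype and day gave the same difference. The values above 0 were 2.91 for Col6a2, 2.25 for Col6a1, 2.01 for Col3a1, 1.76 for Col11a1, 1.43 for Col12a1, 1.32 for Col5a1 and for Col5a2, 1.3 for Col6a3, 1.1 for Col1a2, 1.07 for Col8a2, 1.03 for Col14a1, 1 for Col1a1, 0.67 for Col18a1 and 0.65 for Col16a1. Those below 0 were -0.85 for Col4a5 and -0.77 for Col2a1. Each genotype and sex was taken as 1 culture.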

How the results depend on the processing

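Over all alternatives, 340 of the counts and medians were classed as close to the main value, and 26 were not. A count was close if within a set ratio of the main count, or if both were 0. A median was close if it moved by less than an SD taken from the medians of the single pairs. Neither rule looks at direction or at which collagens were called. For day, 11 collagens were called, where 23.6% of all genes were. With culture as a random block 7 were (18.5% of all genes), and with no replicate block 4 (10.6%). Leaving out a pair or a culture gave 6 to 15, where 8.9% to 28.2% of all genes were called. For day by genotype (0) leaving out gave 0 to 9, where 0% to 6.34% of all genes were called. For the Twist1+/- cultures (0) it gave 0 to 5 (0.0223% to 2.43% of all genes), with 2 under culture and day means (2.22%). For the difference between genotypes (16, where 15.3% of all genes were called) it gave 10 to 16 (6.36% to 18.2%). Without both Twist1+/- pairs at 7 days 10 were called (6.41% of all genes). For genotype (0) leaving out gave 0 to 12, where 0% to 13.2% of all genes were called. For thyroxine in Twist1+/- (0) it gave 0 to 1 (0% to 1.72% of all genes). The median collagen difference between wild-type cultures (-0.20) was -0.79 with the stricter filter, which drops dim collagens, and -0.49 to -0.17 when a pair or culture was left out; that between genotypes (0.15) was 0.67 with the stricter filter and 0.12 to 0.36 with a pair left out. Among single genes, 1622 values had the same call status as in the main fit, that is, called in both fits or in neither. A call was lost for 105 and gained for 40. A change of sign was counted only where either fit made a call. There was 1, the day difference of Col6a1, -0.0094 with the mean of its probe sets. Other causes were not tested. The paired fit for thyroxine and the fit without the block both called no collagen. Day comparisons without both Twist1+/- pairs at 7 days were not run, since they could not be fitted. Chains near the filter are limited by signal over background.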
